A study of Mus musculus with 9 samples.

Results

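Cytochrome c oxidase, complex IV of the respiratory chain, contains nuclear-encoded subunits for which the mouse carries a widely expressed gene and a tissue-restricted gene. The 10 genes of 5 such pairs were followed through brown fat RNA sequencing. They were taken by symbol from the gene count table, where all 10 of 10 were found among 55416 gene identifiers. The pairs are Cox4i1 and Cox4i2, Cox6a1 and Cox6a2, Cox6b1 and Cox6b2, Cox7a2 and Cox7a1, and Cox8a and Cox8b, with the tissue-restricted form named second in each. All 10 exceeded a mean of 10 counts per column.

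The samples were interscapular brown adipose tissue of C57BL/6J mice aged 8 to 10 weeks that express Cas9, the nuclease that a guide RNA directs to a gene. An AAV8 vector (an adeno-associated virus) with a guide against Ucp1 went into the brown fat of the animals of 4 samples, and the same vector with a control guide into those of 5, and all were kept at 22 °C for 14 days. Control samples therefore also carry Cas9 and the vector. The labels do not name the promoter that drives Cas9. The 9 columns of counts carry a number and the tissue abbreviation only, so no column was placed under a guide and the 2 guides are not compared here. The columns are called BAT-A to BAT-I in table order, letters that only name them, and each range and median below is over a mixture of both guides.

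Complex IV passes electrons from cytochrome c to oxygen, and its catalytic core is encoded by mitochondrial DNA while nuclear-encoded subunits surround it. Cox6a2, Cox7a1 and Cox8b are known as the heart and skeletal muscle forms, and Cox7a1 and Cox8b are also widely used as markers of brown and beige adipocytes. Cox4i2 is best known from lung and from vascular mural cells, and Cox6b2 from testis.

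The forms of a pair are separate genes with different sequences, which is what allows their reads to be told apart. Stretches of the coding sequence are shown for the 3 pairs that hold a heart and muscle form, 5′ to 3′ on the coding strand, from GENCODE M21 transcripts, with capitals at the bases that differ between the forms of a pair.
Cox6a2: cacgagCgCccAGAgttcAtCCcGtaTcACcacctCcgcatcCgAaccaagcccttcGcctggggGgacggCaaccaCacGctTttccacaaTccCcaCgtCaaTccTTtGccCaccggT
Cox6a1: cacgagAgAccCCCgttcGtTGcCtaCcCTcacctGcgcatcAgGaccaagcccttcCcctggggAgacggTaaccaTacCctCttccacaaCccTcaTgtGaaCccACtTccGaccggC
Cox7a1: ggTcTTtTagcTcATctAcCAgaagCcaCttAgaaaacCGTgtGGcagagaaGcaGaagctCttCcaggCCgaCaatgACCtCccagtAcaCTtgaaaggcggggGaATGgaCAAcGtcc
Cox7a2: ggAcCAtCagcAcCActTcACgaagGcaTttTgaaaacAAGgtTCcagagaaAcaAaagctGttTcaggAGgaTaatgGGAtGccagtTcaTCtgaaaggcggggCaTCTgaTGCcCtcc
Cox8b: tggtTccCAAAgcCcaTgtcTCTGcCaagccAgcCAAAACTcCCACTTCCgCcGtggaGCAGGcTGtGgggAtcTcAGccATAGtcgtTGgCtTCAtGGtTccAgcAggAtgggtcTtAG
Cox8a: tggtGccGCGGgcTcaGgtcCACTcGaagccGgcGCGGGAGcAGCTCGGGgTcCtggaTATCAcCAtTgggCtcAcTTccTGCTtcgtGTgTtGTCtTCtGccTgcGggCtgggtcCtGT

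The stretches differ at 31 of 120 bases for Cox6a, 40 of 120 for Cox7a and 61 of 120 for Cox8. Over the aligned coding sequence, identity was 64.6% for the Cox6a pair, 62.5% for Cox7a and 56.4% for Cox8. It was 69.2% for the Cox4i pair and 64.6% for Cox6b. No run of identical bases in whole transcripts was longer than 14 bases in any pair. Cox6a2, Cox6b1, Cox6b2, Cox7a1 and Cox8b lie on chromosome 7, Cox4i2 on chromosome 2, Cox6a1 on 5, Cox4i1 on 8, Cox7a2 on 9 and Cox8a on 19. Cox4i1 overlaps Emc8 on the opposite strand, which had 530 to 669 counts, and no source used here states the strand setting, so reads in that overlap could belong to either gene. Cox6a2 overlaps Itgad on the opposite strand, which had 0 to 2 counts.

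The columns held 15460829 to 17909534 counts, of which 22.32 to 33.94% came from genes of the mitochondrial genome. That share was 31.49 to 33.94% in BAT-A to BAT-E and 22.32 to 26.45% in BAT-F to BAT-I. These counts are part of the column sum by which levels are scaled below, so levels of nuclear genes in different columns also depend on them. Fat markers were abundant in every column: Cidea, a lipid droplet protein of brown adipocytes, lay between 1265 and 1749 counts per 1000000 counts of the column (CPM), and the adipokine gene Adipoq between 576 and 735 CPM. Skeletal muscle transcripts were also present in every column and differed widely. The 14 genes of a skeletal muscle list summed to 324 CPM in BAT-B, to 5177 CPM in BAT-E and to 1360 CPM at the median.

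Brown fat transcribed both forms of the Cox7a and Cox8 pairs, with the tissue-restricted form ahead per kilobase of transcript in 9 of 9 columns, and mostly the widely expressed form of the other 3 pairs. Per kilobase, Cox7a1 was 1.55 to 2.003 times Cox7a2 and Cox8b was 1.72 to 2.41 times Cox8a. By counts, Cox7a1 supplied a median of 52.3% of its pair and Cox8b 56.7%. Cox6a2 supplied a median of 1.12%, Cox6b2 of 0.526% and Cox4i2 of 0.436%. As a fold, the share of Cox6a2 ranged widest, from 0.232% in BAT-B to 5.61% in BAT-E, or 24.2-fold. In percentage points it spanned 5.38, against 6.39 for Cox7a1 and 8.35 for Cox8b.

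**Figure D1:**
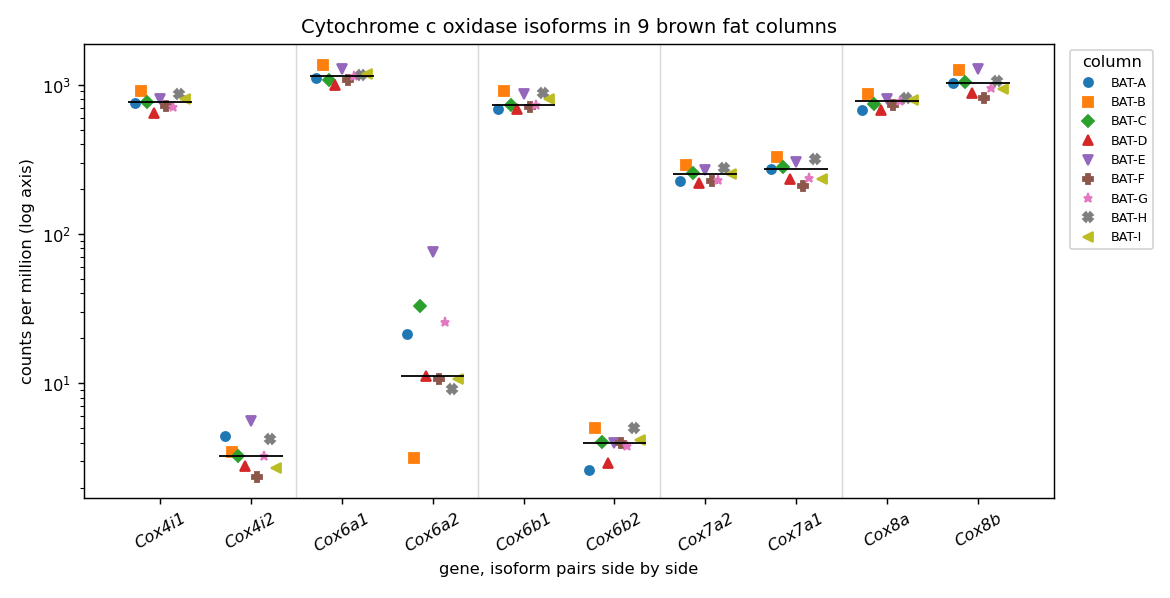
Level of the 10 genes in CPM on a log axis, with isoform pairs side by side; each symbol is 1 of 9 columns and the line is the median. The Cox6a2 points spread from 3.16 to 75.2 CPM, while each of the 7 genes with a median above 100 CPM spans at most 1.57-fold.

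Levels of different genes were compared per kilobase of transcript. By the median CPM per kilobase, the order was Cox8b at 2841, Cox6a1 at 1991, Cox8a at 1408, Cox6b1 at 1176.9, Cox4i1 at 1004, Cox7a1 at 691, Cox7a2 at 384, Cox6a2 at 16.4, Cox6b2 at 6.85 and Cox4i2 at 4.47. Each gene exceeded the next in all 9 columns, except that Cox6a2 exceeded Cox6b2 in 8 of 9 and Cox6b2 exceeded Cox4i2 in 7 of 9. The ranges over columns overlapped between Cox8b and Cox6a1, Cox8a and Cox6b1, Cox6b1 and Cox4i1, Cox6a2 and Cox6b2, and Cox6b2 and Cox4i2. For the first 3 of these pairs the order was nevertheless the same within every column, while for the last 2 it was not.

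Among the widely expressed forms, Cox4i1, the common form of subunit IV, which joins early in assembly, ranged from 641 to 902 CPM with a median of 768. Cox6a1 ranged from 988 to 1359 CPM (median 1137), and Cox6b1, whose protein faces the intermembrane space, from 686 to 911 CPM (median 727). Cox7a2 ranged from 219 to 288 CPM (median 253) and Cox8a from 676 to 863 CPM (median 775). These 5 genes varied little, with the highest column at most 1.41 times the lowest.

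Cox7a1 measured 272 CPM in BAT-A, 329 in BAT-B, 279 in BAT-C, 234 in BAT-D, 302 in BAT-E, 209 in BAT-F, 237 in BAT-G, 317 in BAT-H and 234 in BAT-I. It was highest in BAT-B, the column with the least muscle transcript, and lowest in BAT-F, a 1.57-fold range. In the same column order, its share of the pair was 54.4, 53.3, 52.3, 51.7, 52.9, 48.2, 50.8, 53.5 and 48.0%. The extremes lay outside each other's counting error: the 95% Clopper-Pearson interval was 53.4 to 55.5% in BAT-A and 47.0 to 49.1% in BAT-I. Intervals of this kind cover counting error only, not differences between animals.

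Cox7a1 exceeded Cox7a2 in 7 of 9 columns by counts and in 9 of 9 per kilobase. Its transcript is the shorter of the pair, and per kilobase its median share was 64.7%.

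Cox8b measured 1023 CPM in BAT-A, 1249 in BAT-B, 1037 in BAT-C, 876 in BAT-D, 1266 in BAT-E, 816 in BAT-F, 942 in BAT-G, 1062 in BAT-H and 936 in BAT-I. It was near its highest level both in the column with the most muscle transcript and in the column with the least. In the same column order, its share of the pair was 60.2, 59.1, 58.5, 56.4, 61.2, 52.9, 54.9, 56.7 and 54.1%. Cox8b therefore exceeded Cox8a in every column, by counts and per kilobase, where its median share was 66.6%. The lowest and highest shares were separated by more than counting error, at 52.3 to 53.5% in BAT-F and 60.7 to 61.8% in BAT-E.

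**Figure D2:**
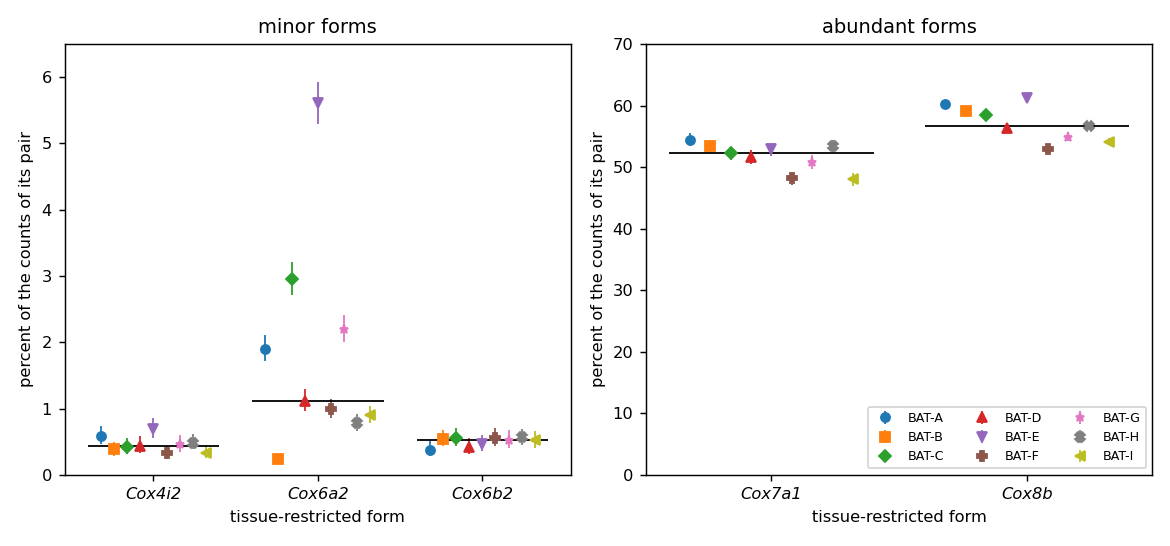
Percent of a pair's counts from the tissue-restricted form, for the 3 minor forms (left) and for Cox7a1 and Cox8b (right); symbols are the 9 columns, bars are 95% Clopper-Pearson intervals and lines are medians. Cox6a2 reaches 5.61% in BAT-E, whereas Cox7a1 stays between 48.0 and 54.4% and Cox8b between 52.9 and 61.2%.

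Cox6a2, the muscle form of subunit VIa, measured 21.4 CPM in BAT-A, 3.16 in BAT-B, 32.8 in BAT-C, 11.2 in BAT-D, 75.2 in BAT-E, 10.7 in BAT-F, 25.6 in BAT-G, 9.11 in BAT-H and 10.7 in BAT-I. Acta1, the skeletal muscle actin, measured 361, 49.0, 543, 217, 1032, 242, 472, 229 and 192 CPM in the same order. Both genes were lowest in BAT-B, followed in height by a close group of 4 columns, and both were then higher in BAT-A, BAT-G, BAT-C and BAT-E, in that order. The range was 23.8-fold for Cox6a2 and 21.1-fold for Acta1. In relation to Acta1, Cox6a2 stayed between 3.98 and 7.28 counts per 100 counts of Acta1, a 1.83-fold range. Against the same gene, Cox7a1 ran from 29.2 to 671 and Cox8b from 123 to 2547 counts per 100.

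Across the 9 columns, log2(CPM + 1) of Cox6a2 and Acta1 had a Pearson r of 0.97 (exact two-sided permutation p = 4.13e-05, Benjamini-Hochberg adjusted p = 0.000827 over 20 relations). Spearman's rho was 0.92 (exact permutation p = 0.00131, adjusted p = 0.0262). The 20 relations are those of the members with Acta1 and with Ucp1, the latter used only in this adjustment. Cox6a2 changed by 0.97 on the log2 scale per doubling of Acta1. Without BAT-B and BAT-E, the columns farthest from the median of Acta1, r was again 0.97, with an exact permutation p of 0.00298 and an adjusted p of 0.0595. These p-values are the share of pairings of the columns that gave a coefficient at least as large in size. They take the columns as exchangeable. The columns mix both guides, and the labels do not say that they come from separate animals, so the p-values describe these columns only.

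**Figure D3:**
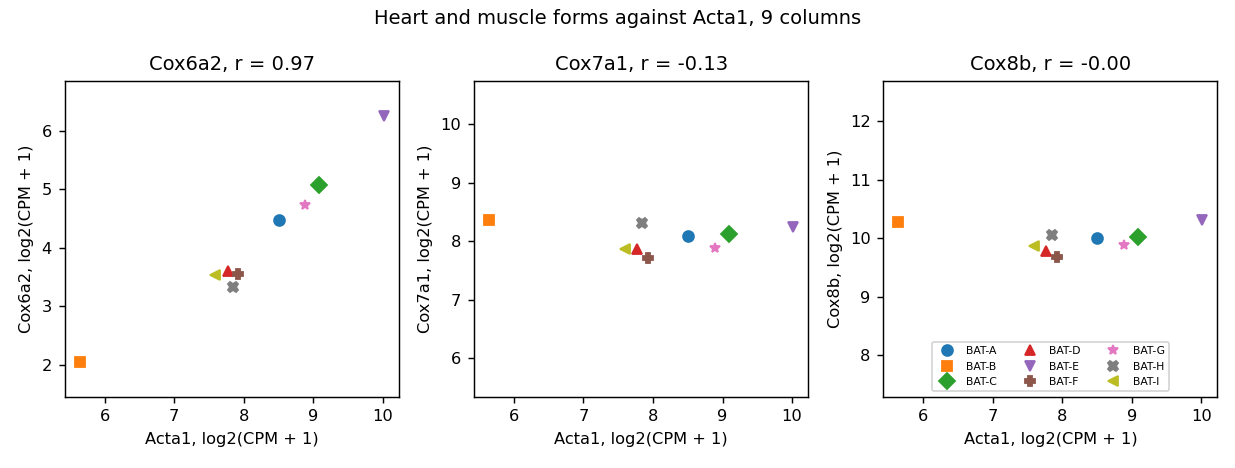
Cox6a2, Cox7a1 and Cox8b against Acta1, all in log2(CPM + 1), with 1 symbol per column and axes of equal span for the 3 genes. Cox6a2 follows Acta1 over its whole range (r = 0.97), and the other forms stay at a nearly level height.

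The other heart and muscle forms showed no such relation over all 9 columns. For Cox7a1, r with Acta1 was -0.13 (exact permutation p = 0.747, adjusted p = 0.879) and rho 0.03 (exact permutation p = 0.948, adjusted p = 0.948). For Cox8b, r was -0.0021 (exact permutation p = 0.996, adjusted p = 0.996) and rho 0.25 (exact permutation p = 0.521, adjusted p = 0.847). Without BAT-B and BAT-E, r was 0.24 for Cox7a1 and 0.41 for Cox8b. These coefficients rested on single columns. Without BAT-B alone, r was 0.74 for Cox8b (exact permutation p = 0.0328, adjusted p = 0.328) and 0.47 for Cox7a1, and without BAT-E alone it was -0.48 and -0.40. A relation of either gene to muscle transcript is therefore not shown and not bounded by these columns. In BAT-B, where Acta1 was lowest, Cox7a1 stood at 329 and Cox8b at 1249 CPM. The part of muscle transcript in these levels was not tested.

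Within pairs, where the scaling of a column has little effect, the log2 ratio of Cox6a2 to Cox6a1 had an r of 0.98 with Acta1 (exact permutation p = 3.58e-05, adjusted p = 0.000358 over 10 relations). Its rho was 0.92 (adjusted exact permutation p = 0.0131), and r was 0.96 without BAT-B and BAT-E (adjusted exact permutation p = 0.0258). Cox6a1 spanned 1.38-fold over the columns, against 23.8-fold for Cox6a2. This ratio therefore largely repeats the relation of Cox6a2 to Acta1 and is no separate support for it. The 10 relations again include those with Ucp1. The ratio of Cox7a1 to Cox7a2 had an r of 0.05 (adjusted exact permutation p = 0.888) and that of Cox8b to Cox8a an r of 0.23 (adjusted exact permutation p = 0.686). The ratio of Cox4i2 to Cox4i1 had an r of 0.67 (exact permutation p = 0.0484, adjusted p = 0.121) and did not pass after adjustment. That of Cox6b2 to Cox6b1 had an r of -0.22.

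The difference between the muscle forms was then measured by their ratios to one another, a choice made after seeing the values. The log2 ratio of Cox6a2 to Cox7a1 had an r of 0.98 with Acta1 and that of Cox6a2 to Cox8b an r of 0.99 (adjusted exact permutation p = 9.09e-05 for each, over 3 relations). The ratio of Cox7a1 to Cox8b had an r of -0.33 (adjusted exact permutation p = 0.366). Cox6a2 thus changed relative to both other muscle forms as Acta1 changed. Cox6a2 spanned 23.8-fold, against 1.57-fold for Cox7a1 and 1.55-fold for Cox8b. The first 2 ratios therefore largely repeat the relation of Cox6a2 to Acta1 and are no separate support for it.

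Of the 10 genes, Cox6a2 alone reached an r of 0.8 or more with Acta1. The same was true of 258 of 13226 genes with a mean of at least 10 counts, or 1.95%, and Cox6a2 lay above 99.66% of those genes. Cox8b lay above 49.36%, near the middle of all genes, and Cox7a1 above 32.93%. Both places rest on coefficients that changed sign when single columns were left out. For the other members r was between -0.38 for Cox4i1 and 0.43 for Cox4i2, and none passed the test.

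**Figure D4:**
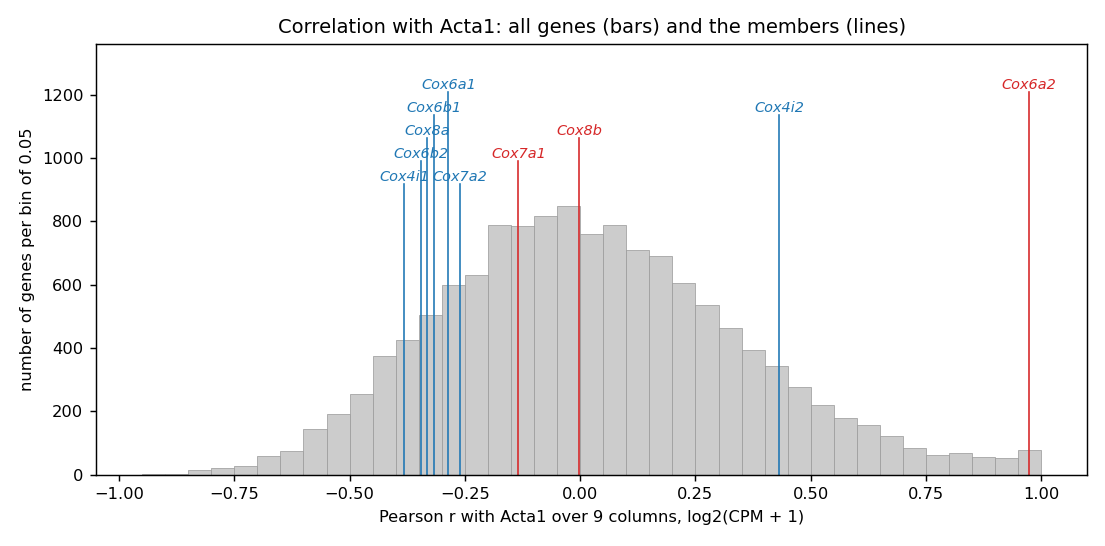
Pearson r with Acta1 over the 9 columns for all genes with a mean of at least 10 counts (grey bars, number of genes per bin) and for the 10 isoform genes (lines, with the heart and muscle forms in red). Cox6a2 stands at 0.97 at the upper end, and the other 9 lie between -0.38 and 0.43.

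Skeletal muscle genes moved with Cox6a2 as a group. All 14 of 14 genes of the muscle list had an r of at least 0.8 with Cox6a2, from 0.88 to 0.99, against 2.01% of all genes, and the other 13 of 13 had one with Acta1, against 1.95%. Among slow and cardiac muscle genes, 5 of 6 that were abundant enough reached 0.8 with Acta1. The slow muscle myosin Myh7 lay between 4.39 and 164 CPM, while the cardiac genes Myh6 and Tnnt2 had at most 9 and 4 counts in any column. Sums over brown adipocyte genes (3746 to 7431 CPM, 8 genes) and general adipocyte genes (5306 to 7307 CPM, 5 genes) spanned 1.98-fold and 1.38-fold, against 16.0-fold for the muscle list. Of their genes 0 of 8 and 0 of 5 reached 0.8 with Acta1, which is near the share of 1.95% over all genes and says nothing particular about these lists. The part of muscle transcript in the level of Cox6a2 was not tested. In bulk tissue, fewer cells of a type and less RNA per cell cannot be told apart.

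The genes most like Cox6a2 across the 9 columns were Tpm2 (r 0.99), a tropomyosin, Hfe2 (0.99) and Jsrp1 (0.99), a protein of the junctional sarcoplasmic reticulum. Acta1 stood 33rd in that order. Tpm2 ran from 32.3 to 501 CPM, Hfe2 from 0.929 to 26.7 CPM and Jsrp1 from 0.557 to 12.2 CPM. The genes most like Cox7a1 were Gm45051 (0.98), the ATP synthase subunit gene Atp5k (0.97) and the ribosomal protein gene Rps26 (0.97). Those most like Cox8b were the class I histocompatibility gene H2-K2 (0.98), Uqcr11, a complex III subunit (0.97), and Rps26 (0.96). Cox7a1 and Cox8b themselves had an r of 0.92. For Cox4i1 the nearest gene was Cox5b (0.99), another complex IV subunit, and for Cox7a2 the ATP synthase gene Atp5o (0.97).

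The 7 genes with a median above 100 CPM, a limit set after seeing the values, had positive coefficients with one another. Among their 21 pairs r ran from 0.56 to 0.95 with a median of 0.82, and 14 reached 0.8. Among all 653796 pairs of genes above that limit the median r was 0.27, and 7.76% reached 0.8. All of these genes share the column sum as divisor, so the coefficients are a description. Of the 7, 6 were highest in BAT-B and 4 were lowest in BAT-D.

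Cox4i2 measured 4.43 CPM in BAT-A, 3.47 in BAT-B, 3.27 in BAT-C, 2.81 in BAT-D, 5.56 in BAT-E, 2.35 in BAT-F, 3.25 in BAT-G, 4.22 in BAT-H and 2.71 in BAT-I. It was highest in BAT-E and lowest in BAT-F, and its share of the pair lay between 0.324 and 0.695%. Its r with the 9 genes of a pericyte and smooth muscle list ran from -0.24 to 0.76, and 0 of 9 reached 0.8, a level that 1.06% of all genes reached. With the sum of the list, r was 0.71. Some single genes outside the list had coefficients of similar height, at 0.79 with Cox8b and 0.74 with Cox7a1. In the skeletal muscle list r with Cox4i2 ran from 0.25 for Myh1 to 0.73 for Myl1. Among the endothelial genes it ran from 0.28 for Kdr to 0.70 for Cdh5. A coefficient of this height is thus not confined to the pericyte and smooth muscle list, and the lists as wholes were not compared. The list summed to between 436 and 772 CPM, lowest in the same column as Cox4i2, BAT-F, and highest in BAT-A. Its sums were 436 to 513 CPM in BAT-F to BAT-I, against 603 CPM or more in the other columns. BAT-F to BAT-I were also the columns lowest in Ucp1, so the coefficient with the sum is not free of that split.

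Cox6b2 ranged from 2.63 CPM in BAT-A to 5.01 CPM in BAT-B (median 4.01), and its share from 0.380 to 0.565%. Transcripts of the testis genes Prm1, Prm2, Tnp1 and Odf1 were at 0 in all 9 columns. The counts of Cox6b2 were thus found in columns in which none of these germ cell markers was detected at this depth.

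The rest of complex IV gave the setting for these levels. The nuclear genes of complex IV and related forms listed outside the 5 pairs (Cox5a, Cox5b, Cox6c, Cox7b, Cox7c, Cox7a2l and Ndufa4) spanned 1.29-fold to 1.46-fold over the columns. This is close to the span of the widely expressed isoforms. The mitochondrial core subunit mt-Co1 ran from 48554 to 78240 CPM, whereas mt-Co2 was counted at 14.5 to 73.9 CPM and mt-Co3 at 8.48 to 67.5 CPM. How multiply mapped reads were counted is not given, so the counts of mt-Co2 and mt-Co3 cannot be read as transcript levels. The reason for their low counts was not tested. Of these 10 listed genes, mitochondrial ones included, 0 reached an r of 0.8 with Acta1. Of 22 assembly factor genes tested 0 did so, and both numbers are near the 1.95% of all genes. The 22 ran from -0.84 for Sco1, a copper chaperone, to 0.36 for Sco2, with a median of -0.13. Sco1 is thus the extreme of a list and was not tested on its own. Over all genes, 0.159% were at -0.8 or below. Further tissue-restricted subunit genes were scarce: Cox8c was at 0 counts in every column, Cox7b2 had at most 1 count, and Ndufa4l2 lay between 4.72 and 11.2 CPM.

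No coefficient with Ucp1, the uncoupling protein gene of brown adipocytes, is given, because a wide gap in its levels left fewer than 6 columns on either side.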

How the data were processed

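RNA was extracted with RNA Stat60 and sequenced as Illumina libraries, per the labels' protocols. The build GRCm39 and the tools STAR, FastQC and DESeq2 appear in the submitters' processing notes with no version or role. For annotation, strand setting and multiply mapped reads, nothing was given in the sources used. The authors deposited whole-number counts per Ensembl gene identifier, of which 52083 of 55416 were given a symbol.

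Counts were divided by the column sum (CPM). Correlations used log2(CPM + 1), and exact two-sided permutation tests over all 362880 pairings of 9 columns. Values differed between all 36 pairs of columns beyond counting noise by a chi-square test, so none was merged. Transcript lengths and sequences came from GENCODE M21 (GRCm38), so no coordinates are given. No other gene shared 95% identity over 100 bases with a member, apart from the Emc8 overlap.

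Named genes were the members, Ucp1, Acta1, the listed markers and complex IV genes, and the 3 genes nearest to each member. The members and lists were chosen with earlier results of these data known. The sources used here place no column under a guide, so no test between guides was run. Alternatives were TMM scaling (edgeR 4.0.16), median-of-ratios size factors (DESeq2 1.42.0), mt- genes left out, unlogged CPM, a pseudocount of 0.1, Spearman's rho, the summed muscle list in place of Acta1, and columns left out. Python 3.11.15 with scipy 1.17.1, Biopython 1.88 and BLAST+ 2.17.0 were used, with scripts tested on simulated data.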

Additional observations from a re-analysis of the deposited data

Results flagged for a closer look

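In BAT-E, Cox6a2 stood at 75.2 CPM against 32.8 CPM in the next column, a gap of 0.588 of the whole range of the 9 columns, and Acta1 stood at 1032 CPM against 543 CPM, a gap of 0.498. Both gaps exceeded 0.493, Dixon's 95% critical value for 9 values. These were 2 of 16 sets of values examined, and chance marks about 1 in 20 where values are normally distributed. The 2 are not separate events, since they concern the same column and genes with an r of 0.97. The values were unlogged. On the log2 scale the largest gap of Acta1 lay above its lowest column, BAT-B, at 0.446 of the range.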

How the results depend on the processing

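Correlations of the members with Acta1 kept their side of the adjusted threshold of 0.05 under each alternative tried, except for Cox6a2 without BAT-B and BAT-E (r 0.97, adjusted exact permutation p = 0.0595). With each column left out in turn, r with Acta1 ran from 0.97 to 0.99 for Cox6a2, from -0.40 to 0.47 for Cox7a1 and from -0.48 to 0.74 for Cox8b. The ratio to the partner gave 0.98 to 0.99 for Cox6a2, -0.07 to 0.43 for Cox7a1 and -0.12 to 0.71 for Cox8b. Median shares ran from 1.05 to 1.51% for Cox6a2, 52.0 to 52.6% for Cox7a1 and 56.5 to 57.6% for Cox8b. Per kilobase, the median shares were 64.7% for Cox7a1 and 66.6% for Cox8b, since both have the shorter transcript. Without the filter on low counts, 1.19% of genes reached an r of 0.8 with Acta1, over more genes tested. Other scalings moved no member's span by over 1.5 times. No paired analysis was possible because no column name carries a replicate number or guide. Counts of 2 to 6 CPM limit what can be said of Cox4i2 and Cox6b2.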

Other observations

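Ucp1 measured 3848 CPM in BAT-A, 4620 in BAT-B, 3937 in BAT-C, 2704 in BAT-D, 3652 in BAT-E, 396 in BAT-F, 606 in BAT-G, 445 in BAT-H and 459 in BAT-I. The largest gap, between 606 and 2704 CPM, took 0.609 of the range on the log2 scale and left 4 columns below and 5 above. A coefficient over all columns was not given because of this gap, and neither side held the 6 columns set as the least for one. The relations of the isoform genes to Ucp1 are therefore not given as results. Their p-values were computed only for the adjustment over 20 and 10 relations above. No column was placed under a guide from the Ucp1 values. In the same column order, the share of Cox8b in its pair was 60.2, 59.1, 58.5, 56.4, 61.2, 52.9, 54.9, 56.7 and 54.1%. That of Cox7a1 was 54.4, 53.3, 52.3, 51.7, 52.9, 48.2, 50.8, 53.5 and 48.0%.

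The sum of 8 brown adipocyte genes, Ucp1 included, had no gap as wide, its largest being 0.268 of the range on the log2 scale. The columns below the gap in Ucp1, BAT-F to BAT-I, also had the lowest sums. These were 3746 to 4348 CPM, against 5080 CPM or more in the other columns, so coefficients with the sum are not free of that split. Ucp1 supplied between 10.15 and 62.17% of that sum. With it, Cox8b had an r of 0.63 (exact permutation p = 0.0763, adjusted p = 0.743), Cox7a1 of 0.54 (exact permutation p = 0.135, adjusted p = 0.743) and Cox6a2 of 0.14 (exact permutation p = 0.730, adjusted p = 0.876). None passed the test.

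Other genes of the brown adipocyte list also spanned wide ranges. Ppargc1a, a transcriptional coactivator of mitochondrial genes, lay between 46.7 and 392 CPM, and the fatty acid elongase gene Elovl3 between 151 and 828 CPM, against 1265 to 1749 CPM for Cidea.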
